A study of Arabidopsis thaliana with 72 samples.

Results

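PD-plug leaves that had received only the mock treatment were compared with mock-treated leaves of the wild type Col-0, an Arabidopsis thaliana accession. PD-plug carries an estradiol-inducible construct, LexA::PD-Plug, meant to close plasmodesmata when estradiol is given. These leaves therefore show how the line differs from Col-0 without the inducer. The state of the plasmodesmata is not measured by these libraries. The comparison holds 24 of the 72 libraries of the series: 12 PD-plug and 12 Col-0 libraries, with 3 at each of 12, 24, 48 and 72 h after DMSO. The plants were 5 weeks old, and both genotypes were painted with 0.1% DMSO and 0.01% Silwet L-77, a wetting agent. Each sample pooled 2 leaves from 4 plants, and the labels call the 3 samples of a group biological replicates. P-values here measure the spread between such pools. The labels do not state how many independent PD-plug transformants were used or which promoter drives the LexA activator, so the construct and any other difference between the PD-plug and Col-0 plants cannot be told apart. The other libraries used here for comparison are 12 PD-plug and 12 Col-0 libraries painted with 20 µM estradiol, and 12 DMSO libraries of icals3m, a line with an inducible callose synthase construct, LexA::icals3m.

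Plasmodesmata are membrane-lined channels that join neighbouring plant cells and let sugars, hormones, RNA and proteins pass between them. Callose, a glucan laid down around the channel neck, narrows them, and callose synthases such as CALS3 and hydrolytic glucanases set its amount. In leaves, the passage through plasmodesmata feeds sugar towards the phloem, and defence signalling is known to close them. Estradiol-inducible systems use a chimeric activator that binds LexA operator sites once estradiol is present, and such systems can leave some transcription of the construct without the inducer.

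The PD-plug label was checked first with the row for mCherry, a red fluorescent protein, which the second count matrix of the series holds. At 12 h the 3 PD-plug DMSO libraries held 65.59, 93.94 and 99.82 CPM (counts scaled to library size) of mCherry, which is 0.904% of the mean of the PD-plug estradiol libraries of that time. At 24 h they held 20.88, 21.86 and 37.56 CPM, at 48 h 14.96, 14.62 and 14.01 CPM, and at 72 h 7.15, 18.07 and 15.65 CPM. These are 0.088%, 0.0703% and 0.402% of the estradiol means, which were 30420, 20670 and 3389 CPM at those times and 9563 CPM at 12 h. Every PD-plug DMSO library therefore held the mCherry sequence, with a lowest count of 138. The highest count was 5 in a Col-0 DMSO library and 0 in an icals3m DMSO library. The plot of CPM in each DMSO library shows mCherry with the genes described next.

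**Figure D1:**
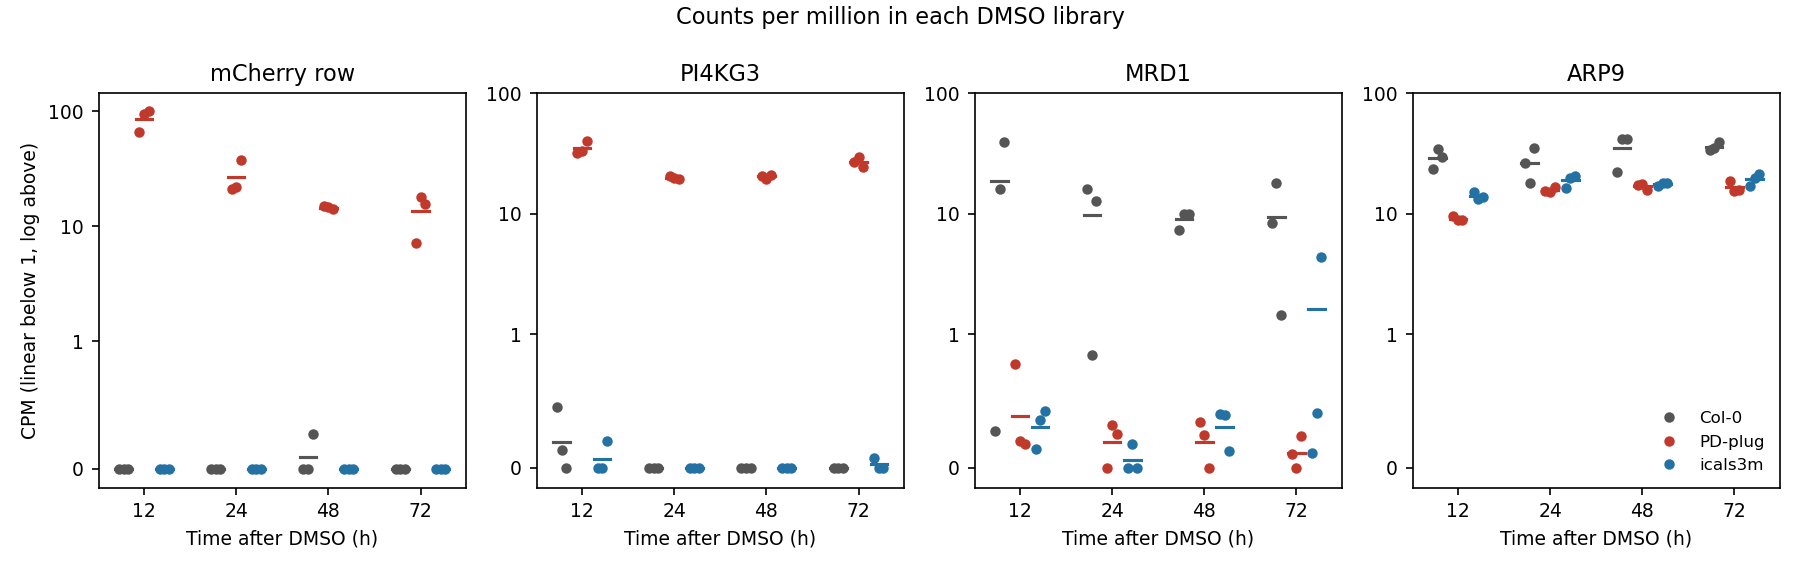
Levels in CPM of the mCherry row, PI4KG3, MRD1 and ARP9 in every DMSO library by hours after treatment, with points for libraries, short lines for means of 3, and an axis that is linear below 1 and logarithmic above. PI4KG3 lies between 19.3 and 40.2 CPM in PD-plug and at or near 0 in Col-0 and icals3m, while MRD1 is low in both PD-plug and icals3m.

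Total counts ran from 37896851 to 52289492 in Col-0 and from 38037406 to 55367880 in PD-plug. Log-scale correlations between replicates were 0.965 to 0.981. A pair of Col-0 libraries lay away from their replicates on minor principal components. Col-0 12 h replicate 1 was at 57.1 on the sixth, which held 2.12% of the variance, against 5.92 and 1.22. The PD-plug 12 h libraries were at -31.7, -19.7 and -22.4 on the sixth. Col-0 48 h replicate 2 was at -49.6 on the fifth, with 2.26%, against -2.77 and 30.3. On the third, with 3.34%, it was at 18.6 against 46.8 and 51.2, and the PD-plug 48 h libraries were at 21.9, 19.2 and 25.0. On the fourth it was at 2.5 against 23.5 and 25.6, and those PD-plug libraries were at -29.0, -30.9 and -44.0. The first principal component, with 49% of the variance, followed time. At 12 h the genotypes were also apart on it, with Col-0 at -151, -143 and -150 and PD-plug at -120, -128 and -130. At the later times they overlapped on it. Genotype had its largest share, an R2 of 54.8%, in the fourth component, which held 2.88% of the variance. Leaf identity was checked with marker lists, and no mesophyll, guard cell, phloem, root, or flower and meristem marker that was tested passed edgeR's threshold between genotypes, while 4 passed at an unadjusted p under 0.05 and DESeq2 called 1 root marker. The summed level of the 5 mesophyll markers was 16800 to 44860 CPM in PD-plug and 15910 to 45480 CPM in Col-0. The root marker COBL9 and the meristem marker STM had no count in any of the 24 libraries, but other members of those lists did. The root markers SCR and BGLU23 had means of 31.1 and 2.46 CPM in PD-plug and 29.7 and 1.36 in Col-0. PHO1, SEP3, PI and AG had means under 1 CPM in both genotypes, and IRT1 and AP3 had up to 4 and 8 counts.

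Averaged over the 4 times, 869 of 20585 genes differed between uninduced PD-plug and Col-0 (4.22%, edgeR quasi-likelihood, Benjamini-Hochberg adjusted p under 0.05). Of these, 487 were higher in PD-plug (2.37% of the genes tested) and 382 lower (1.86%). Most differences were small: the median size among called genes was 0.285 on the log2 scale, and 46 genes, 27 higher and 19 lower, reached 2-fold. Of those 46, 18 had under 1 CPM even in the genotype where they were higher. The sign was the same at all 4 times for 587 of the 869 genes. All 3 PD-plug libraries lay on 1 side of all 3 Col-0 libraries at every time for 32 genes of at least 1 CPM, 22 higher and 10 lower. In whole leaves, fewer cells of a type and less RNA per cell cannot be told apart. The second count matrix, made from the same samples with lower totals, gave 399 calls (254 higher and 145 lower). DESeq2 gave 619 higher and 651 lower, so which direction held more calls depended on the tool. Without Col-0 12 h replicate 1 edgeR called 892 genes, and without Col-0 48 h replicate 2 it called 1089.

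PI4KG3 (AT5G24240), a member of the gamma family of phosphatidylinositol 4-kinase-like proteins, had the largest fold difference among the called genes. Its PD-plug levels were 32.0, 33.5 and 40.2 CPM at 12 h, 20.8, 20.0 and 19.3 at 24 h, 20.8, 19.6 and 20.9 at 48 h, and 27.0, 29.4 and 24.4 at 72 h. Col-0 had no count in 10 of 12 libraries, and the other 2, both from 12 h, had 0.453 and 0.136 CPM. At 24, 48 and 72 h the PD-plug groups held 2665, 2830 and 3587 counts in all, and the Col-0 groups 0. With Col-0 set at a floor of 3 counts over the group, the ratios were 909, 792 and 1130. A count was not taken as 1 fragment here, so these ratios depend on the floor and are not lower bounds. At 12 h the ratio was 208. PI4KG3 is the 1 gene called at all 4 single times, with an adjusted p of 1.14e-08 for the mean of the times. It was as high in the estradiol libraries, at 18.8 to 37.6 CPM in PD-plug against 0 in every Col-0 library. The icals3m DMSO libraries, like Col-0, had no count in 10 of 12 libraries.

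The genes beside PI4KG3 on chromosome 5 were not called. The next gene on one side, AT5G24230, lay between 0 and 1.42 CPM in PD-plug and between 0 and 1.36 in Col-0 (log2 fold change 1.55, SE 0.57, adjusted p = 0.139). The next on the other side, AT5G24260, lay between 29.0 and 39.8 CPM in PD-plug and 28.7 and 40.3 in Col-0. None of the tested genes within 4 positions of PI4KG3 was called.

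Of the 46 genes that reached 2-fold, only MRD1 and HEI10 lay within 5 genes of each other on a chromosome. MRD1 (AT1G53480, MTO1 RESPONDING DOWN) was close to absent in PD-plug. At 48 h it stood at 0.344, 0.245 and 0 CPM in PD-plug and at 7.33, 9.88 and 9.88 CPM in Col-0. Over all times the PD-plug libraries ran from 0 to 0.774 CPM and the Col-0 libraries from 0.272 to 39.8 CPM, so the genotypes overlapped, at 12 h only. The log2 fold change was -5.83 (SE 0.79, adjusted p = 0.000477). Replicates of Col-0 themselves varied widely: at 12 h they held 0.272, 16.2 and 39.8 CPM. MRD1 was also low in the icals3m DMSO libraries, with a median of 0.269 CPM and a highest value of 4.36, and the direct test against them did not pass the threshold (log2 fold change -0.62, adjusted p = 0.69). HEI10 (AT1G53490), the next gene and a factor for meiotic crossovers, was lower by less, with a log2 fold change of -1.22 (adjusted p = 0.0263).

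AT2G05950, AT4G08093 and AT5G28335, which are annotated as pseudogenes, were lower in PD-plug. Over both directions, 7 of 232 tested pseudogenes (3.02%) and 3 of 162 transcribed pseudogenes (1.85%) were called, below the 4.22% over all genes. AT2G05950 ran from 0 to 0.741 CPM in PD-plug and from 0.351 to 6.05 CPM in Col-0, with no overlap at 12, 24 or 48 h and an overlap at 72 h. Its log2 fold change was -3.54 (SE 0.37, adjusted p = 1.19e-05). Unlike MRD1, AT2G05950 was present in every icals3m DMSO library at 3.07 to 9.74 CPM. AT4G08093, a transcribed pseudogene, fell by 4.46 on the log2 scale (adjusted p = 0.000645), with 23 counts over 12 PD-plug libraries and 481 over 12 Col-0 libraries. AT5G28335, chosen after its values were seen, fell by 2.62 (adjusted p = 0.000799), with a median of 0.229 CPM in PD-plug and 1.31 in Col-0.

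ARP9 (AT5G43500), an actin-related protein, was lower in PD-plug at every time. Its PD-plug libraries held 9.52, 8.86 and 8.85 CPM at 12 h and its Col-0 libraries 23.8, 34.3 and 29.8. Over all times PD-plug ran from 8.85 to 18.6 CPM, with a median of 15.7, and Col-0 from 17.9 to 41.9 CPM, with a median of 34. The groups did not overlap at any time, and the log2 fold change was -1.15 (SE 0.11, adjusted p = 5.96e-06). ARP9 was also low in the icals3m DMSO libraries, at 13.4 to 21.3 CPM, where PD-plug was lower by a further -0.27 (log2 fold change, adjusted p = 0.00203). Its counts differ greatly between the 2 matrices, with 17041 against 1782 over the Col-0 libraries.

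EXL5 and EXLA1 came next to PI4KG3 in fold change among the named genes that were higher at every time. EXL5 (AT2G17230), an EXORDIUM-like protein, had a lowest, median and highest level of 8.94, 29.7 and 83.3 CPM in PD-plug and 2.86, 11.6 and 23.2 CPM in Col-0. At 48 h its libraries held 43.5, 41.7 and 83.3 CPM in PD-plug and 10.1, 7.62 and 13.6 in Col-0. The genotypes were apart at every time, and the log2 fold change was 1.57 (SE 0.20, adjusted p = 0.000264). EXLA1 (AT3G45970), an expansin-like protein, was higher by the same 1.57 (SE 0.18, adjusted p = 6.98e-06), with medians of 2.85 CPM in PD-plug and 1.04 in Col-0.

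AGP17 (AT2G23130), an arabinogalactan protein of the cell surface, ran from 25.3 to 55.6 CPM in PD-plug and from 4.91 to 27.3 CPM in Col-0 (log2 fold change 1.33, SE 0.16, adjusted p = 0.000156). XTH4 (AT2G06850), which cuts and rejoins xyloglucan, was higher by 0.99 (SE 0.14, adjusted p = 0.000689). At 48 h XTH4 stood at 21.6, 21.5 and 39.1 CPM in PD-plug against 5.42, 6.51 and 10.4 in Col-0. GA3OX1 (AT1G15550), the gibberellin 3-oxidase that forms bioactive gibberellin, rose by 0.57 (SE 0.098, adjusted p = 0.00164). Among transcription factors, LBD26 (AT3G27940) rose by 1.14 (SE 0.16, adjusted p = 0.000118) and BHLH62 (AT3G07340) by 0.78 (SE 0.089, adjusted p = 8.17e-06). The 4 further genes named by the same rule, AT1G02380, AT2G47440, AT1G10020 and AT3G52500, rose by 1.05, 1.02, 0.95 and 0.49.

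Of the 12 named genes, the highest of the 22 that were higher without overlap at any time, 8 had their largest log2 fold change at 48 h and 0 at 12 h. Over all 22 it was 10 at 48 h and 4 at 12 h. AT1G10020 is the 1 gene of these 12 whose difference itself varied with time (interaction adjusted p = 0.0436), from 0.26 at 12 h to 1.53 at 48 h. The heat map of these genes gives every time beside the estradiol libraries.

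**Figure D2:**
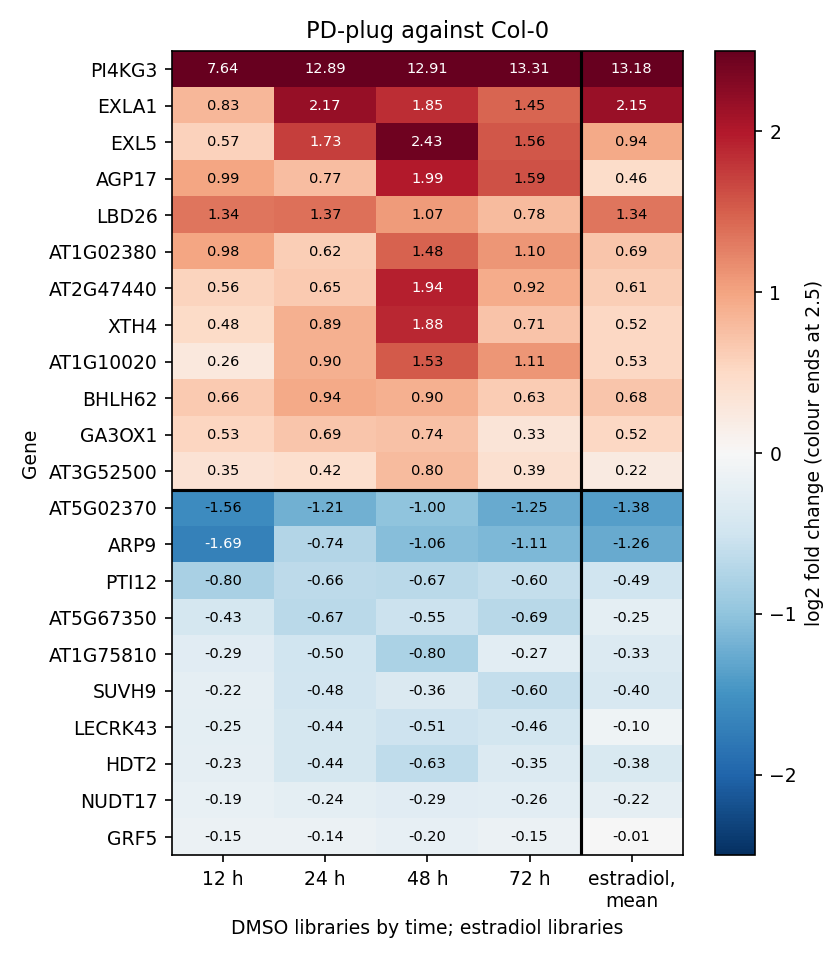
Log2 fold changes of PD-plug over Col-0 for the 12 highest of the 22 genes higher and the 10 genes lower in PD-plug whose libraries were apart at every time, in DMSO libraries at each time and in estradiol libraries as the mean of the times, with the colour scale ending at 2.5. All 22 genes keep their sign in the estradiol column.

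The genes lower at every time were mostly lower by less than 2-fold. AT5G02370 ran from 0.734 to 2.74 CPM in PD-plug and 1.92 to 5.86 in Col-0 (log2 fold change -1.26, SE 0.18, adjusted p = 0.000156). PTI12 (AT2G30740), a cytoplasmic protein kinase, ran from 9.54 to 16.8 CPM in PD-plug and 16.4 to 32.7 in Col-0 (-0.68, SE 0.069, adjusted p = 2e-06). AT5G67350 and AT1G75810 fell by 0.59 and 0.47.

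Among chromatin proteins in the lower group, SUVH9 (AT4G13460), which helps bring the RNA-directed DNA methylation machinery to methylated DNA, had medians of 35.2 CPM in PD-plug and 49.1 in Col-0 (-0.41, SE 0.052, adjusted p = 3.53e-05). HDT2 (AT5G22650), a plant-specific histone deacetylase, had medians of 103 and 169 CPM (-0.41, SE 0.052, adjusted p = 4.33e-05). LECRK43, a lectin receptor kinase, fell by 0.41, the nudix hydrolase NUDT17 by 0.24 and the 14-3-3 protein GRF5 by 0.16. In the second count matrix AT5G02370, SUVH9, HDT2, NUDT17 and GRF5 did not pass the threshold, with adjusted p of 0.131, 0.959, 0.749, 0.0812 and 0.113. RNA silencing and DNA methylation genes gave 0 calls among 18 by edgeR and by DESeq2, with 1 at an unadjusted p under 0.05. Over all genes edgeR called 4.22%, so few calls would be looked for in a list of 18.

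The number of called genes varied widely between times. At 12 h 912 genes differed (4.43%), 432 higher (2.1%) and 480 lower (2.33%). At 24 h 51 differed (0.248%), 41 higher (0.199%) and 10 lower (0.0486%). At 48 h 388 differed (1.88%), 216 higher (1.05%) and 172 lower (0.836%). At 72 h 7 differed (0.034%), 6 higher (0.0291%) and 1 lower (0.00486%). A test of whether the genotype difference was equal at the 4 times called 353 genes (1.71%). For 341 of the 353 the log2 fold changes took both signs over the times, and for 284 the signs at 12 h and 48 h were opposite. The 353 genes were picked by a test on these same fold changes, which favours mixed signs. Shares over all genes are not given, so these counts do not show a general reversal. The largest change was at 12 h for 219 and at 48 h for 82. Counts at single times rest on few libraries: without 1 library the 12 h count was as low as 263 (without PD-plug 12 h replicate 1), the 48 h count 105 (without Col-0 48 h replicate 1) and the interaction count 126 (without PD-plug 12 h replicate 1). Likewise the 24 h count ran from 13 to 55 and the 72 h count from 1 to 38. Without Col-0 12 h replicate 1 the 12 h count was 577, and without Col-0 48 h replicate 2 the 48 h count was 533. DESeq2 called 156 genes at 24 h and 110 at 72 h.

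**Figure D3:**
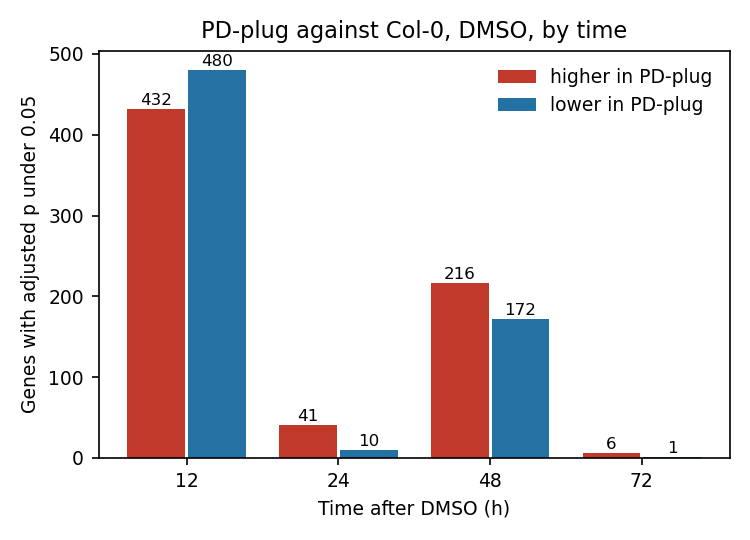
Number of genes with an adjusted p under 0.05 between PD-plug and Col-0 DMSO libraries at each time in hours, as bars for genes higher and genes lower in PD-plug. The 12 h bars stand at 432 and 480 and the 72 h bars at 6 and 1.

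TSB1, PAT1 and APS1, named for their low interaction p-values, were lower in PD-plug at 12 h. TSB1 (AT5G54810), the beta subunit of tryptophan synthase, held 373, 426 and 397 CPM in PD-plug and 730, 725 and 884 CPM in Col-0 at 12 h. The groups were far apart there, and the log2 difference was -0.97 (SE 0.076, adjusted p = 5.47e-08). At 24 h the same gene held 158.4 ± 8.39 and 159.3 ± 14.4 CPM (SD, n = 3), a log2 fold change of -0.01. PAT1 (AT5G17990), an anthranilate phosphoribosyltransferase of the same pathway, held 147, 161 and 141 CPM against 248, 281 and 317 at 12 h (-0.92, SE 0.084, adjusted p = 3.38e-07). APS1 (AT3G22890), an ATP sulfurylase that starts sulfate assimilation, held 485, 492 and 531 CPM against 845, 831 and 984 (-0.82, SE 0.074, adjusted p = 3.38e-07). The interaction with time had adjusted p of 1.79e-05, 0.000134 and 1.94e-05 for TSB1, PAT1 and APS1.

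Glucosinolates are sulfur-rich defence compounds built from methionine in the aliphatic branch and from tryptophan in the indole branch. Of 24 tested genes of the glucosinolate and camalexin list, 6 were higher and 3 lower at 12 h, when 2.1% of all genes were higher and 2.33% lower. The PD-plug and Col-0 libraries of BCAT4 and CYP83A1 overlapped at that time. FMOGS-OX1 (AT1G65860), which oxidises the side chain of aliphatic glucosinolates, rose most, at 2.366 ± 0.587 CPM in PD-plug and 0.6997 ± 0.216 in Col-0 (SD, n = 3, log2 fold change 1.78, adjusted p = 0.00013). BCAT4, which starts methionine chain elongation, rose by 1.18 (5.154 ± 1.86 against 2.264 ± 1.18 CPM), the transporter BASS5 by 0.79, CYP83A1 of the aliphatic core by 0.66 and the sulfotransferase SOT18 by 0.51. On the indole side CYP79B3, which converts tryptophan, fell by 0.72 (58.24 ± 13.2 against 96.2 ± 5.67 CPM), CYP83B1 fell by 0.51 and the shared lyase SUR1 by 0.34. MYB34, a regulator of the indole branch, rose by 0.89.

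The aliphatic members had opposite signs at 12 and 48 h. Of 15 tested aliphatic genes, 13 had a positive log2 fold change at 12 h, with a median of 0.66. At 48 h 0 of the 15 were positive and the median was -0.54, with 0 called higher and 1 called lower. For instance, BCAT4 stood at 122, 93.8 and 98.8 CPM in PD-plug and 146, 178 and 133 in Col-0 at 48 h. The 8 indole and camalexin genes had medians of -0.50 at 12 h and -0.09 at 48 h. The split into branches was made after the values were seen, and over all genes the median was 0.000599 at 12 h. With the 4 times averaged, SOT17 alone of the 24 genes was called by edgeR (4.22% over all genes), at -0.38 (SE 0.096, adjusted p = 0.0255). That call was lost in the second matrix (adjusted p = 0.0506) and in 5 of 24 fits without 1 library. DESeq2 called 0 of the list higher and 2 lower.

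**Figure D4:**
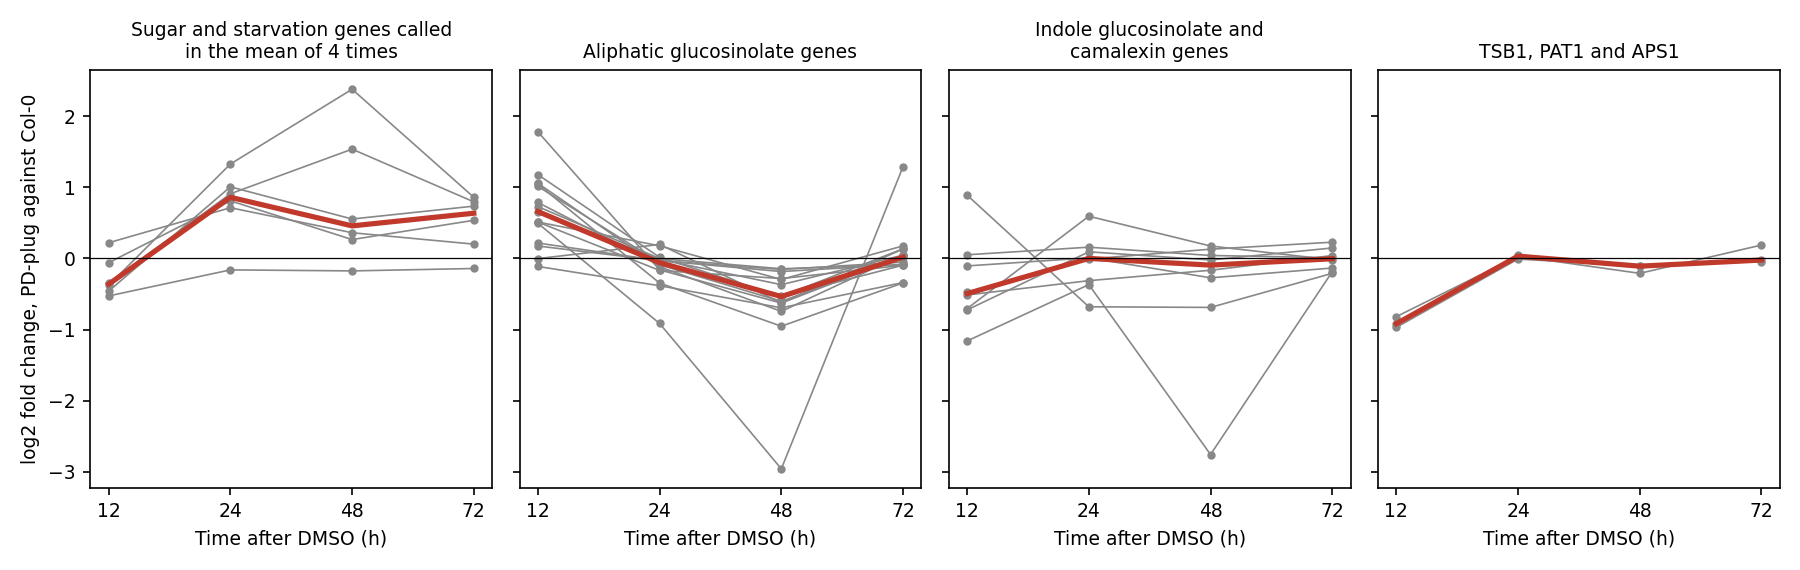
Log2 fold changes of PD-plug over Col-0 by hours after DMSO for the called sugar and starvation genes, the aliphatic glucosinolate genes, the indole glucosinolate and camalexin genes, and TSB1, PAT1 and APS1, with grey lines for genes and a red line for the median. The aliphatic median goes from 0.66 at 12 h to -0.54 at 48 h.

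At 12 h 3 of 20 tested genes of the iron, copper, phosphate and nitrate list were called, all higher in PD-plug (2.1% over all genes). In the mean of the times 0 were called, against 4.22% over all genes (4 at an unadjusted p under 0.05, and 1 higher by DESeq2). NIA1, a nitrate reductase, held 898, 808 and 817 CPM in PD-plug and 607, 542 and 453 in Col-0 (log2 fold change 0.65, adjusted p = 0.0453). The nitrite reductase NIR1 rose by 0.41 and the plastid glutamine synthetase GLN2 by 0.29. The nitrate reductase NIA2, at 0.15, and the transporter NPF6.3, at -0.04, were not called. NPF6.4 (AT3G21670), a nitrate transporter, changed sign with time. It held 49.9, 49.7 and 42.4 CPM against 28.6, 25.8 and 29.5 in Col-0 at 12 h (0.76, adjusted p = 3.24e-06). At 48 h it held 75.3, 82.6 and 81.0 CPM against 115, 109 and 110 (-0.49, adjusted p = 0.0016). Its interaction had an adjusted p of 3.72e-06, and 0.484 in the second matrix.

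The carboxypeptidase-like gene SCPL48 (AT3G45010) and the expansin EXPA10 (AT1G26770) followed the same course as NPF6.4. SCPL48 was at 24.8, 27.0 and 21.7 CPM against 12.1, 15 and 13 at 12 h and at 29.5, 28.9 and 30.6 against 45.2, 48.9 and 45.9 at 48 h. Its interaction had an adjusted p of 1.79e-05. EXPA10, a wall-loosening protein, was at 96.5, 82.1 and 78.8 CPM against 31.3, 29.6 and 36.8 at 12 h and at 60.9, 67.9 and 69.4 against 190, 121 and 165 at 48 h. Both genes were thus higher in PD-plug at 12 h and lower at 48 h in all 3 libraries. For EXPA10 the interaction had an adjusted p of 6.09e-05, and 0.189 in the second matrix. AT5G03670, one of the 2 highest genes named at 12 h, rose there by 1.99 (adjusted p = 0.0126).

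Of 19 tested genes of sugar transport, starch and starvation, 5 were higher and 1 lower in the mean of the times (2.37% and 1.86% over all genes), and the list's median of 0.03 stood beside 0.00146 over all genes. STP1 (AT1G11260), a hexose-proton symporter, held 471, 527 and 530 CPM in PD-plug and 129, 206 and 192 CPM in Col-0 at 48 h. The groups were far apart at 48 h but overlapped at 12 h, when the log2 fold change was -0.35 (adjusted p = 0.59). Averaged over time STP1 rose by 0.72 (SE 0.14, adjusted p = 0.00689). SWEET12 (AT5G23660), which exports sucrose towards the phloem, rose by 0.37 (SE 0.045, adjusted p = 1.54e-05), and by 0.71 at 24 h, when it held 15.77 ± 2.28 CPM against 9.636 ± 0.873 (SD, n = 3).

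TPS10 (AT1G60140), a trehalose-phosphate synthase-like protein, rose by 0.39 (SE 0.072, adjusted p = 0.00319). The other calls were ASN1 (AT3G47340), an asparagine synthetase that rises under carbon starvation, and TPS9, both named after their values were seen. ASN1 held 24.5, 19.5 and 18.6 CPM at 48 h in PD-plug and 3.37, 4.19 and 4.46 in Col-0, a log2 fold change of 2.38 (adjusted p = 0.0197), while at 12 h it held 68.41 ± 22.3 and 88.87 ± 28.2 CPM. The hexose transporter STP13 (AT5G26340) was the lower member, at -0.25 (SE 0.055, adjusted p = 0.00854). None of ASN1, STP1, SWEET12, TPS9, TPS10 and STP13 had an interaction past the threshold, with the lowest adjusted p at 0.0538 for TPS9, so their differences were not shown to vary between times.

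Salicylic acid and defence genes included no call for a higher level in uninduced PD-plug. Of 19, 0 were higher and 2 lower (2.37% and 1.86% over all genes), with a list median of -0.11. PAD4 (AT3G52430), a lipase-like partner of EDS1 in immune signalling, ran from 10.8 to 24 CPM in PD-plug, with a median of 15.4, and from 15.3 to 30.5 in Col-0, with a median of 18.9. It fell by 0.36 (SE 0.059, adjusted p = 0.000701), most at 48 h, where PD-plug held 14.5, 12.4 and 14.3 CPM and Col-0 20.2, 24.6 and 20.2. ICS1 (AT1G74710), the isochorismate synthase behind most salicylic acid, also fell by 0.36 (SE 0.075, adjusted p = 0.00589), and at 12 h by 0.80. In the second matrix ICS1 did not pass the threshold (-0.66, adjusted p = 0.0676). The other genes of the list included 1 higher and 2 lower at an unadjusted p under 0.05, and DESeq2 likewise called 0 higher and 2 lower. Immune receptor genes gave 0 calls among 12 by edgeR (4.22% over all genes) and by DESeq2, with 3 at an unadjusted p under 0.05.

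Of 16 jasmonate and ethylene genes, 1 was higher and 1 lower, against 2.37% and 1.86% over all genes. VSP1 (AT5G24780), a vegetative storage protein induced by jasmonate, held 39.4, 37.2 and 70.8 CPM in PD-plug and 2.94, 1.56 and 0.635 in Col-0 at 24 h. Averaged over time it rose by 2.63 (SE 0.54, adjusted p = 0.00937), but at 72 h the log2 fold change was -0.06. The call for the mean was lost with all 72 libraries in 1 fit and with counts divided by 4, where adjusted p reached 0.0677. The 24 h call was lost in the second matrix (adjusted p = 0.134), with all 72 libraries, and in 5 of 24 fits without 1 library. COI1 (AT2G39940), the jasmonate receptor, fell by 0.18 (SE 0.043, adjusted p = 0.0176). Of 11 touch and rapid stress genes, 0 were higher and 2 lower, against 2.37% and 1.86% over all genes. The lower ones, the transcription factors ERF5 and ZAT12, fell by 0.53 and 0.64 (adjusted p = 0.0327 and 0.0394). These calls for ERF5 and ZAT12 were lost without 1 library in 9 and 17 of 24 such fits.

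Heat shock genes gave 0 calls among 15 in the mean of the times by edgeR and by DESeq2 (8 at an unadjusted p under 0.05). Over all genes edgeR called 4.22%. The list's median of -0.56 was nevertheless the lowest of the pathway lists, beside 0.00146 over all genes. At 12 h every one of the 15 had a negative log2 fold change, with a median of -0.635 beside 0.000599 over all genes. HSFB2A was called lower there, when 2.33% of all genes were. The summed level of the 15 genes overlapped widely, at 78.95 to 860.1 CPM in PD-plug and 126 to 1209 CPM in Col-0. In the estradiol libraries the list's median was 0.541, with 0 called higher and 0 lower.

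Of 19 tested cold and dehydration genes, 3 were higher and 0 lower (2.37% and 1.86% over all genes), with a list median of -0.01. DESeq2 gave 4 higher and 2 lower. The list median was 0.25 at 12 h, -0.14 at 48 h and -0.15 at 72 h. KIN2 (AT5G15970), a small cold-induced protein, held 26.9, 22.1 and 22.0 CPM in PD-plug and 11.1, 12.3 and 13.2 in Col-0 at 12 h. Those groups did not overlap, and the log2 fold change there was 0.95 (SE 0.11, adjusted p = 6.32e-06), with 0.26, 0.01 and 0.05 at the later times (interaction adjusted p = 0.00167). COR15A (AT2G42540), which protects chloroplast membranes in the cold, held 36.71 ± 7.59 CPM against 18.91 ± 1.78 at 12 h (SD, n = 3, log2 fold change 0.96, adjusted p = 0.000193). Its call in the mean of the times, at 0.23, was lost without 1 library in 16 of 24 fits, and the second matrix gave -0.069. COR47 (AT1G20440), a dehydrin, rose by 0.26 (SE 0.043, adjusted p = 0.000714).

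In the circadian clock list of 18 genes, LUX was called higher and RVE8 and RVE6 lower, against 2.37% higher and 1.86% lower over all genes. At an unadjusted p under 0.05, 2 were higher and 9 lower, and DESeq2 called 2 higher and 4 lower. At 48 h 2 of the 18 were called higher and 2 lower, against 1.05% and 0.836% over all genes. At 48 h LUX, part of the evening complex, rose by 0.58 (118.4 ± 5.94 against 78.96 ± 3.8 CPM) and the pseudo-response regulator APRR1 by 0.34. The morning-phased genes RVE8 and APRR9 fell at 48 h by 1.08 and 1.29. RVE8 held 2.32, 2.74 and 2.55 CPM in PD-plug and 5.15, 4.53 and 6.44 in Col-0 at that time, and APRR9 held 3.962 ± 0.436 against 9.687 ± 1.18 (SD, n = 3). Averaged over time LUX rose by 0.32 (SE 0.069), RVE8 fell by 0.47 (SE 0.11) and RVE6 fell by 0.26 (SE 0.074), with adjusted p of 0.00812, 0.00955 and 0.0397. The second matrix gave 0.12 for RVE8 (adjusted p = 0.926). RVE6 lost its call without 1 library in 13 of 24 fits.

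Several lists gave no call by edgeR in the mean of the times, in which 4.22% of all genes were called. They were plasmodesmata and callose (0 of 21), photosynthesis (0 of 20), senescence and chlorophyll breakdown (0 of 11), flavonoid and anthocyanin (0 of 12), endoplasmic reticulum folding (0 of 17), and phase change and flowering (0 of 6). At an unadjusted p under 0.05 these lists held 4, 3, 5, 0, 3 and 0 genes in that order. DESeq2 called 3 senescence genes, 1 higher and 2 lower, and none in the other 5 lists. CALS3 (AT5G13000) ran from 90.8 to 117 CPM in PD-plug and from 78.9 to 116 in Col-0, and the log2 difference was 0.11 (SE 0.037, adjusted p = 0.0799). At 12 h it held 100.9 ± 6.2 against 82.78 ± 3.74 CPM (SD, n = 3), a log2 fold change of 0.29 (adjusted p = 0.0263). The callose synthase gene CALS12 was lower at 12 h, by 0.28. In the shade and growth list 1 of 10 was called, against 4.22% over all genes. The called gene was CYP734A1, which inactivates brassinosteroids and rose by 0.47 (SE 0.11, adjusted p = 0.0134).

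The 2 genes named highest and lowest at single times add other changes. At 48 h AT1G50040 stood at 8.29, 9.61 and 16.2 CPM in PD-plug and 0.531, 1.76 and 1.55 in Col-0 (3.14, adjusted p = 0.0117), and AT3G15310 at 0.258, 0.409 and 0.368 against 1.81, 2.36 and 0.641 (-2.21, adjusted p = 0.0153). At 24 h AT2G19650 fell by 0.94 (adjusted p = 0.016). At 72 h AT5G25240 rose by 1.19 and SUVH9 fell by 0.60, each with an adjusted p of 0.0257. In the second matrix these calls for AT2G19650, AT5G25240 and SUVH9 were lost, with adjusted p of 0.0627, 0.136 and 1, and that for AT3G15310 was lost with all 72 libraries in 1 fit (adjusted p = 0.0747).

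The genotype difference was measured again in the 24 estradiol libraries, which share no library with the DMSO comparison. There 4656 of 20455 genes differed between PD-plug and Col-0 (22.8%), 1978 higher (9.67%) and 2678 lower (13.1%). Of the 869 genes called in DMSO, 867 were tested, 658 had the same sign (75.9%) and 380 were called in the same direction. Over all 20227 genes tested in both, 52.2% had the same sign. A further 55 of the 867 were called in the opposite direction. Among the 12 named genes that were higher at every time, 11 were also called higher with estradiol, AGP17 being the exception at 0.46 (adjusted p = 0.068). Of the 10 that were lower at every time, 8 were called lower, and LECRK43 and GRF5 were not (-0.10 and -0.01, adjusted p = 0.214 and 0.796). EXLA1 stood at 2.15 with estradiol and 1.57 without, and EXL5 at 0.94 and 1.57. ARP9 stood at -1.26 and -1.15.

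**Figure D5:**
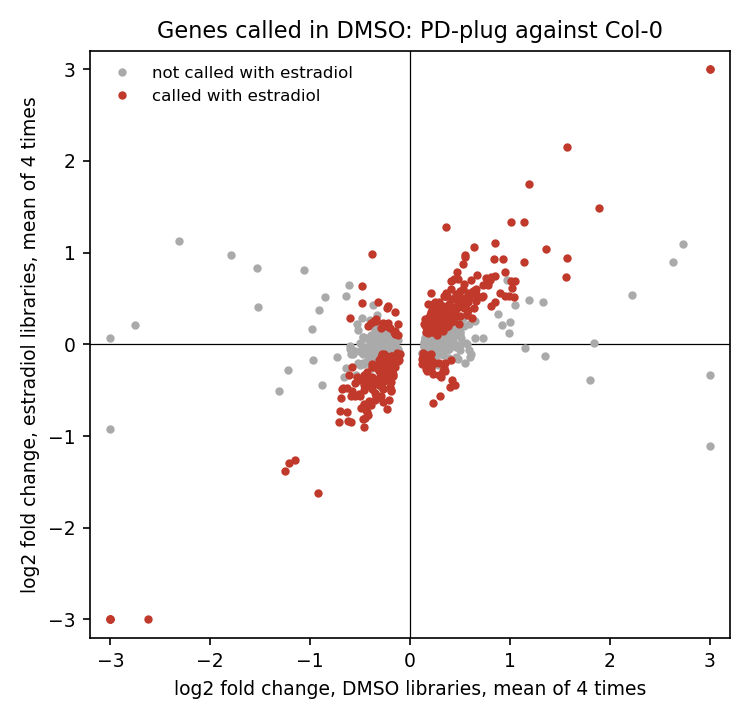
Log2 fold changes of PD-plug over Col-0 in DMSO libraries (x) and estradiol libraries (y), each a mean of the 4 times, for the 867 genes called in DMSO and tested with estradiol, with red points called with estradiol. The 10 genes beyond 3 on either axis are drawn at 3, and 658 of the 867 share their sign.

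Several pathway lists differed from Col-0 with estradiol but gave few calls without it. With estradiol 22.8% of all genes were called (9.67% higher and 13.1% lower), against 4.22% in DMSO. Of 19 salicylic acid and defence genes 10 were then higher and 1 lower, and of 17 endoplasmic reticulum folding genes 10 were higher. Of 20 photosynthesis genes 16 were lower with estradiol, and of 11 touch and rapid stress genes 7 were higher. In DMSO the defence list and the touch list each gave 0 higher and 2 lower, and the folding and photosynthesis lists gave 0 calls. Of 19 sugar genes 5 were called higher in DMSO and 7 with estradiol. SWEET12, TPS10, STP1 and TPS9 were called in both, while ASN1 was not called with estradiol (0.43, adjusted p = 0.241). RFS6, TPS11 and CWINV1 were called with estradiol only. Whether the genotype difference itself changed with treatment was not tested. In 1 estradiol library, PD-plug 48 h replicate 1, the total in the main matrix was 1.368 times its total in the second matrix, against 1.902 to 2.067 in the other 71.

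Set directly against icals3m in DMSO, PD-plug differed in 1532 of 20489 genes (7.48%), 894 higher (4.36%) and 638 lower (3.11%). This comparison shares its PD-plug libraries with the one against Col-0. CALS3, of which icals3m carries an altered, inducible copy, was at 168 to 285 CPM in icals3m and -1.07 on the log2 scale in PD-plug relative to it. Of the 12 named genes higher than in Col-0, 2 were also higher than in icals3m, PI4KG3 and LBD26, while 7 were lower than in icals3m. EXL5, for example, had medians of 29.7 CPM in PD-plug, 11.6 in Col-0 and 43.4 in icals3m, and XTH4 21.5, 8.75 and 50.7. STP1 had medians of 322, 189 and 514 CPM in the same order. PTI12 had 13.5, 20.5 and 13.3 CPM, and AT5G02370 1.3, 3.57 and 1.41. LBD26 was higher in PD-plug than in icals3m, by 0.67 (log2, adjusted p = 0.0152), with medians of 3.25, 1.66 and 2.38 CPM.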

How the data were processed

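Leaf RNA was sequenced. The authors deposited 2 matrices of 33602 genes that hold expected counts as whole numbers. The submitters' processing notes name FastQC 0.11.8, Trim Galore 0.5.0, cutadapt 1.7, HISAT2 2.1.0, STAR 2.5, SAMtools 1.4.1, StringTie 1.3.3 and the build TAIR10, without saying which made which matrix. Multiples of 4 are in excess (in the 24 columns the value 4 fills 13788 cells, 3 fills 2872 and 5 fills 3494), so a count was not taken as 1 fragment. Each column was matched to a sample by name, and groups came from genotype, treatment and time in the labels.

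R 4.3.3 with edgeR 4.0.16 and limma 3.58.1 was used. Genes were filtered with filterByExpr (at least 10 counts, and 15 in all), then TMM-scaled and fitted as 8 group means by edgeR's quasi-likelihood method (trended dispersion, robust), with 16 residual degrees of freedom. The contrast was the mean of the 4 within-time differences, or 1 time, or a test that the 4 were equal. P-values were adjusted by Benjamini-Hochberg over all genes tested. A CPM uses TMM-scaled totals. An SD is taken over the 3 libraries of a group, and an SE comes from the quasi-likelihood test. The comparisons with estradiol libraries and with icals3m were fitted separately. The matrix with the mCherry row gave mCherry and the gene symbols, and was an alternative otherwise. Gene order and biotype came from the TAIR10.1 annotation, so no coordinates are given.

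Genes named were the 12 highest and 12 lowest log2 fold changes among called genes with at least 1 CPM in the higher genotype and no overlap at any time (10 of the lower kind exist), up to 4 called genes per list, the 2 highest and 2 lowest at each time, the 6 lowest p of the interaction, and members of neighbour runs. The comparison, the lists and the rule were chosen with earlier results of these data known. Simulated counts for 20306 genes used the trended dispersion without gene-level spread, and changed genes were drawn only from those with higher mean counts. There edgeR recovered 99% of 100 genes changed 2-fold in the mean of the times, with 13 false calls. It recovered 89% of 100 genes changed 4-fold at 12 h alone in the interaction. These rates do not describe power for smaller changes or for genes with low counts. Alternatives were DESeq2 1.42.0, RLE factors, no filter, the second matrix, counts divided by 4, a replicate block, all 72 libraries, additive terms and leaving out each library.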

Additional observations from a re-analysis of the deposited data

Results flagged for a closer look

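The genotype difference itself varied between the 4 times, by the edgeR interaction test, for 9 of the genes named by the stated rule. The adjusted p was 3.72e-06 for NPF6.4, 1.79e-05 for SCPL48, 1.79e-05 for TSB1, 1.94e-05 for APS1, 6.09e-05 for EXPA10, 0.000134 for PAT1, 0.00167 for KIN2, 0.00605 for COR15A and 0.0436 for AT1G10020. List members described at 12 h also passed this test. They were FMOGS-OX1, BASS5, SOT18, MYB34 and NIA1, with adjusted p of 0.000542, 0.0073, 0.0181, 0.0366 and 0.0449. TSB1, PAT1, APS1, KIN2 and COR15A had their largest difference at 12 h, and AT1G10020 at 48 h, while NPF6.4, SCPL48 and EXPA10 exceeded Col-0 at 12 h and fell below it at 48 h.

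The mCherry row, which enters no test, held signal in the uninduced PD-plug libraries. Its mean was 86.4, 26.8, 14.5 and 13.6 CPM at 12, 24, 48 and 72 h, with at most 5 counts in any Col-0 library. Whether this level of mCherry has a part in any gene difference was not tested.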

How the results depend on the processing

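The mean of the 4 times gave 869 calls, and 653 to 1089 when 1 library was left out. The second matrix gave 399 calls in the mean (254 higher and 145 lower), 246 at 12 h, 15 at 24 h, 157 at 48 h, 2 at 72 h, 71 in the interaction, 2554 with estradiol and 474 against icals3m. DESeq2 gave 156 at 24 h (110 higher), 736 at 48 h, 110 at 72 h (72 higher) and 939 in the interaction. In the mean DESeq2 gave 619 higher and 651 lower, so the side with more calls turned. All 72 libraries in 1 fit gave 1312 in the mean, 1424 at 12 h, 130 at 24 h, 666 at 48 h, 75 at 72 h and 798 in the interaction, and additive terms gave 507 in the mean. Leaving out 1 library gave 263 to 1111 at 12 h, 13 to 55 at 24 h, 105 to 533 at 48 h, 1 to 38 at 72 h, 126 to 525 in the interaction, 4231 to 4742 with estradiol and 1121 to 1854 against icals3m. The lowest values came without PD-plug 12 h replicate 1 (263 and 126), Col-0 24 h replicate 2 (13), Col-0 48 h replicate 1 (105) and PD-plug 72 h replicate 3 (1). The cause was not tested.

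The replicate numbers did not pair the samples: same-numbered deviations correlated at -0.0828 to 0.0731 over 12 pairs. With the replicate block, 84 genes were called at 24 h, 55 at 72 h and 941 in the mean. Counts divided by 4 gave 1168 at 12 h, 39.5% of them higher against 47.4%. RLE factors and no filter kept all counts within 1.5 times.

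Of 71 tests of named genes, the second matrix lost 20 and reversed 2: RVE8 to 0.12 (adjusted p = 0.926) and COR15A to -0.069 (adjusted p = 0.999). Of 1704 tests without 1 library 121 lost their call and 0 reversed. EXPA10, ZAT12, COR15A and RVE6 lost theirs in 17, 17, 16 and 13 of 24. At 72 h 7 of 20585 genes were called and 1650 had an unadjusted p under 0.05.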
